A study of Mus musculus with 5 samples.

Results

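The angiopoietins Angpt1 and Angpt2, the receptors Tek (Tie2) and Tie1 and the phosphatase Ptprb (VE-PTP) form the ligand and receptor core of angiopoietin signalling, and they are described here across the cells of the mouse liver. The members were taken by name from the gene columns of 5 single-cell tables, and all 5 were present in every library, among 19736 genes found in any of them. The tables hold nonparenchymal liver cells of wild-type male mice that had partial ligation of the inferior vena cava (pIVCL), which congests the liver, or a sham operation at 9 weeks of age and were sampled 2 weeks later. Livers were perfused with pronase and collagenase, hepatocytes were spun out at low speed, Percoll removed erythrocytes and dead cells, and cells were captured on the BD Rhapsody whole-transcriptome platform, which tags each captured mRNA with a molecular identifier, so that the unit is the molecule. Sham 1, sham 2 and pIVCL 1 carry the batch label 2021.3, and pIVCL 2 and pIVCL 3 the label 2021.7, which has no sham library. A fit within batch 2021.3 therefore sets 1 pIVCL library against 2 shams and assumes that the lone library varies like the shams, so that its values are given as descriptions and not as support. No animal carried an engineered allele by the labels, the cells come from an enriched fraction and not from whole liver, and the labels do not say whether the libraries of a group came from separate animals. P-values therefore measure the spread between these libraries, which may be technical.

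Angiopoietin-1 is the activating ligand of Tie2, a receptor tyrosine kinase of endothelial cells, and is made mostly by cells around vessels; signalling from Tie2 through PI3K and Akt keeps the transcription factor FOXO1 out of the nucleus and stabilises the vessel wall. Angiopoietin-2 is made by endothelial cells themselves, is stored and released on stimulation, acts as a weak or context-dependent antagonist of Tie2, and is itself a FOXO1 target gene. Tie1 binds no angiopoietin with high affinity but pairs with Tie2, and VE-PTP removes phosphate from Tie2 and from the VE-cadherin complex. In the liver the sinusoidal endothelium faces hepatic stellate cells across the space of Disse, and central and portal ends of the sinusoid differ in their endothelial genes.

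Of 19815 cells, 17188 had at least 500 molecules, at least 200 genes and at most 25% mitochondrial molecules, and 69.7% to 97.1% of a library passed. Each retained cell was assigned to a class by marker genes, none of which is one of the 5 genes. In all 14654 cells were placed in 1 class, 2027 reached the threshold of more than 1 class and were left out, and 507 reached none. A cell that reached the thresholds of both the smooth muscle class and the stellate and fibroblast class was kept in the latter. Libraries held 12448260 to 30523228 molecules, with a median per cell of 2966 to 5458. From 8 to 30 cell labels were shared between libraries in each of the 10 pairs. The library pIVCL 3 stood apart in its makeup, with 24.7% endothelial cells against 49.5% to 62.1% in the others, 478 B cells against 15 to 85, and 330 hepatocyte-gated cells against 4 to 38, and results that rest on it are given with and without it. All 12 endothelial gate markers were detected in the endothelial class of every library, and also in the Kupffer class of every library. Since the gate used these markers, their detection is no separate support for the class. Levels are given as CPM, the molecules of a gene per 1000000 molecules of the class, summed over its cells in a library, and intervals on pooled counts are 95% exact Poisson intervals that cover counting error only.

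The endothelial class carried Angpt2, Tek, Tie1 and Ptprb, whereas Angpt1 was found in stellate cells and cholangiocytes. Endothelial cells numbered 2740 and 2378 in the sham libraries and 1531, 1725 and 700 in pIVCL 1 to 3. Against the class of stellate cells and fibroblasts, paired within libraries, endothelial cells were higher in Ptprb by 7.38 ± 0.24 on the log2 scale (SE; adjusted p = 2.12e-11), in Tie1 by 6.30 ± 0.24 (9.88e-11), in Tek by 5.43 ± 0.28 (1.1e-08) and in Angpt2 by 2.67 ± 0.23 (5.58e-07), by edgeR's quasi-likelihood test with Benjamini-Hochberg adjustment. Angpt1 was lower in endothelial cells by the same test, with a log2 difference of -8.22 ± 0.26 (adjusted p = 1.98e-11). In that comparison 47.8% of all tested genes passed, so that passing alone set none of these genes apart.

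Against Kupffer cells, the resident macrophages of the sinusoid, the log2 difference was 6.12 ± 0.21 for Angpt2, 7.17 ± 0.18 for Tek, 6.89 ± 0.23 for Tie1 and 7.13 ± 0.14 for Ptprb, with 67.4% of all genes passing. These differences shrank to between 2.84 and 3.20 when cells with markers of more than 1 class were kept. Kupffer values are given for comparison. Whether the molecules in Kupffer cells came from the cells themselves, from free RNA or from unresolved mixtures was not tested. At a median of 5480 to 9511 molecules per Kupffer cell against 4142 to 5149 per endothelial cell, a mean of 0.438% of sham and 1.29% of pIVCL Kupffer cells held a molecule of Angpt2.

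**Figure D1:**
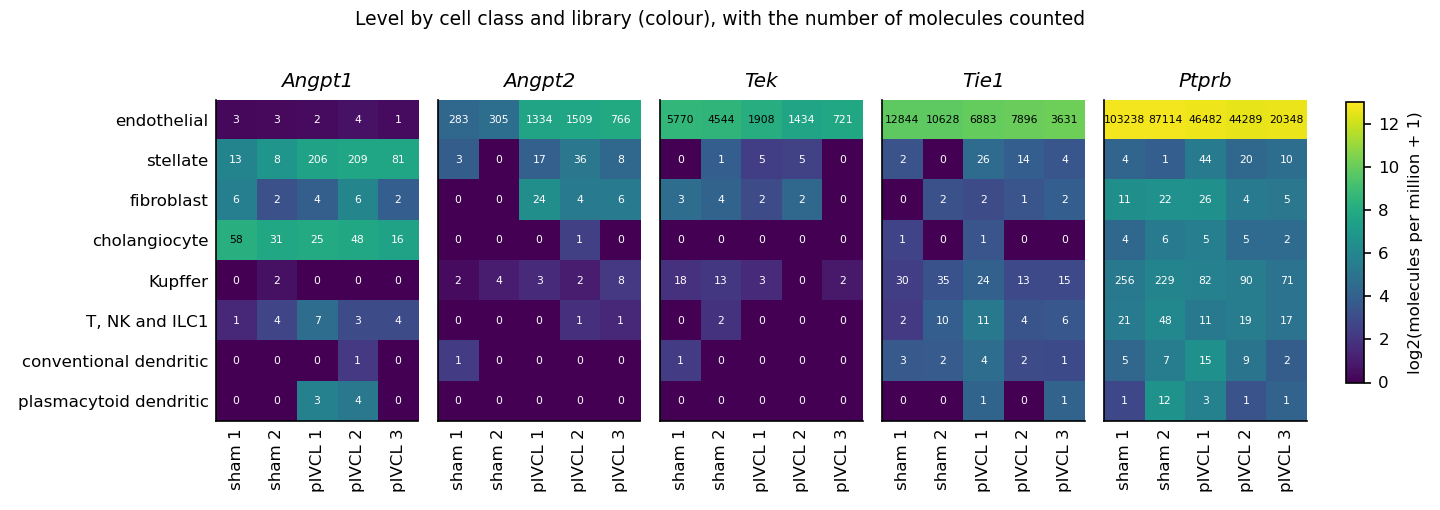
Levels of the 5 genes in 8 cell classes and 5 libraries, as a heat map of log2(CPM + 1) with the number of molecules printed in each cell of the map. Brighter colours mark higher levels. The endothelial row is the brightest for Angpt2, Tek, Tie1 and Ptprb in every library. Angpt1 is seen in the stellate and cholangiocyte rows, with 1 to 4 molecules in the endothelial row of a library.

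Angpt2 rose in endothelial cells after pIVCL. Its level was 19.2 and 24.7 CPM in the sham libraries and 189, 203 and 235 in pIVCL 1, 2 and 3, from 283, 305, 1334, 1509 and 766 molecules. The lowest pIVCL library lay far above the higher sham library, and the batch 2021.3 pIVCL library lay with the others. The means were 22.0 ± 3.85 (SD, n = 2) and 209 ± 24.0 (SD, n = 3), a 9.51-fold difference, and the fitted log2 fold change was 3.16 ± 0.16 (SE), with an adjusted p of 8.36e-05 by edgeR's quasi-likelihood test with Benjamini-Hochberg adjustment. In this fit 5.87% of 11386 genes passed, 2.84% higher and 3.03% lower. Of the 4 members with enough endothelial molecules to be tested, Angpt2 was higher, Tek was lower, and Tie1 and Ptprb did not pass. Leaving aside fits with a single library in a group, Angpt2 passed under each alternative run. These include a block on the replicate number, which the labels do not give as a pairing. Over all 19 alternatives its log2 fold change was 2.51 to 3.34, and the value was 3.11 without pIVCL 3.

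More endothelial cells showed an Angpt2 molecule after pIVCL. This share follows the mean level and is not a separate result. Of endothelial cells, 8.50% and 9.88% held at least 1 Angpt2 molecule in the sham libraries and 38.9%, 39.1% and 44.6% in the pIVCL libraries. After each cell was thinned to 1000 molecules, so that depth was equal, the shares were 2.34% and 2.19% against 16.1%, 15.9% and 19.2%. The thinned means differed by 14.8 percentage points with no overlap between groups, and the two-sided exact permutation test gave p = 0.1 (0.25 adjusted over the 5 genes), the smallest p that 2 libraries against 3 allow. Thinned Kupffer cells held the transcript in 0 of the sham libraries' cells and in a mean of 0.108% of cells in the pIVCL libraries.

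Angpt2 molecules were unevenly spread over the cells. Cells with at least 2 molecules numbered 32 and 54 in the sham libraries and 321, 351 and 184 in the pIVCL libraries. The most in a single cell was 6 in each sham library and 13, 15 and 15 in the pIVCL libraries. In the pIVCL libraries the 10% of endothelial cells with most Angpt2 held 49.6% to 53.5% of its molecules.

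Tek, the receptor that both angiopoietins bind, fell in endothelial cells. It stood at 392 and 368 CPM in the sham libraries and at 270, 193 and 222 in the pIVCL libraries, from 5770, 4544, 1908, 1434 and 721 molecules. Every pIVCL library was below both sham libraries, and pIVCL 1, of the same batch as the shams, was the nearest to them. The mean went from 380 ± 17.3 (SD, n = 2) to 228 ± 38.9 (SD, n = 3), 1.67-fold lower, with a log2 fold change of -0.82 ± 0.16 and an adjusted p of 0.0243 (edgeR quasi-likelihood, Benjamini-Hochberg). The call did not survive a batch term (-0.54, adjusted p = 0.0623) or the removal of sham 1 (-0.79, 0.204), sham 2 (-0.87, 0.139), pIVCL 2 (-0.72, 0.0837) or pIVCL 3 (-0.76, 0.0908), all by edgeR. The direction was the same in each of these fits, and the log2 fold change of the lone pIVCL library of batch 2021.3 was -0.54.

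Fewer endothelial cells showed Tek at equal depth, a share that likewise follows the mean level. Thinned cells held a Tek molecule in 31.6% and 30.7% of cells in the sham libraries and in 22.9%, 16.9% and 19.9% in the pIVCL libraries. The groups did not overlap, and the difference of the means was -11.3 percentage points (two-sided exact permutation p = 0.1, 0.25 adjusted). Without thinning the shares were 81.2% and 77.4% against 59.5%, 50.8% and 57.6%, beside means of 1.78% and 0.569% of Kupffer cells.

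Tie1, the partner receptor, did not pass the test. Its level was 874 and 860 CPM in the sham libraries and 973, 1061 and 1116 in the pIVCL libraries. Each pIVCL library was above both shams, yet the fitted log2 fold change of 0.18 ± 0.13 did not pass (adjusted p = 0.398, edgeR quasi-likelihood). At equal depth 58.5% and 59.2% of sham cells held a Tie1 molecule against 57.9%, 63.6% and 65.5% of pIVCL cells, so that the groups overlapped (two-sided exact permutation p = 0.4). Thinned to 500 molecules the shares were 36.5% and 34.7% against 39.1%, 41.0% and 44.7%, without overlap, a difference of 5.97 percentage points in place of 3.46 (two-sided exact permutation p = 0.2).

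Ptprb, the phosphatase that acts on Tie2, was present in nearly every endothelial cell. The sham libraries held 7021 and 7053 CPM and the pIVCL libraries 6572, 5952 and 6253, and its log2 fold change of -0.26 ± 0.14 did not pass (adjusted p = 0.292, edgeR quasi-likelihood). At equal depth a Ptprb molecule was found in 99.6% and 99.4% of sham cells and in 99.0%, 98.0% and 98.0% of pIVCL cells. The pIVCL libraries were lower on both scales, by amounts that did not pass either test.

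**Figure D2:**
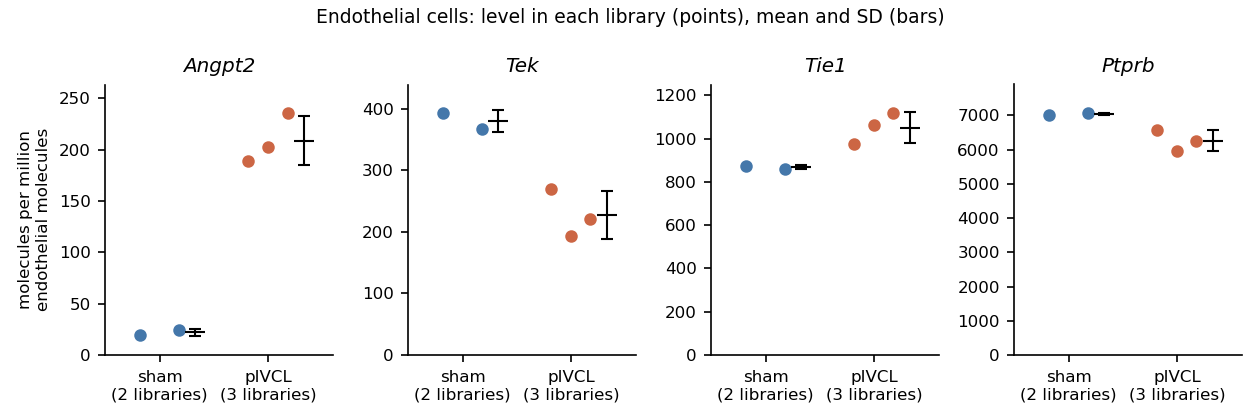
CPM in the endothelial class for Angpt2, Tek, Tie1 and Ptprb, 1 point per library, with the mean and SD of each group. The pIVCL points lie above the sham points for Angpt2 (189 to 235 against 19.2 and 24.7) and Tie1, and below them for Tek (193 to 270 against 392 and 368) and Ptprb.

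Transcripts of ligand and receptor were also counted against each other within each library. Whether the capture of a gene pair was alike in all libraries was not tested. For every 100 Tek molecules the endothelial cells held 4.91 and 6.71 Angpt2 molecules in the sham libraries and 69.9, 105.2 and 106.2 in the pIVCL libraries. For every 100 Ptprb molecules they held 5.59 and 5.22 Tek molecules in sham and 4.11, 3.24 and 3.54 in pIVCL, and 12.4 and 12.2 Tie1 molecules in sham against 14.8, 17.8 and 17.8 in pIVCL. The groups did not overlap in any of the 3 ratios, which rest on the same molecules as the levels given above and were not tested.

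Cells with Angpt2 were not a set without Tek. At equal depth Tek was found in 32.8% of the cells with and 31.6% of the cells without an Angpt2 molecule in sham 1, and in 28.8% and 30.7% in sham 2. The corresponding shares were 19.1% and 23.6% in pIVCL 1, 16.4% and 17.0% in pIVCL 2 and 22.4% and 19.3% in pIVCL 3. The sign of the difference varied between libraries of the same group.

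Marker lists of other cell types moved in both directions in the endothelial cells. Of 14 such lists, 5 took a higher share in every pIVCL library than in both shams, 3 a lower one and 6 overlapped. The stellate and fibroblast marker list took 0.0087% to 0.011% of endothelial molecules in sham and 0.0116% to 0.0212% in pIVCL, the Kupffer list 0.00746% to 0.00995% and 0.011% to 0.0242%, and the erythroid list 0.00211% to 0.0025% and 0.00605% to 0.0272%; the smooth muscle and B cell lists were the others that were higher. The conventional dendritic list took 0.0802% to 0.0828% in sham and 0.0682% to 0.0766% in pIVCL, the monocyte list 0.00458% to 0.00584% and 0.00331% to 0.00439%, and the plasma cell list 0.00154% to 0.00173% and 0.000645% to 0.0011%. The endothelial list itself went from 2.58%–2.72% to 2.01%–2.30%, and mitochondrial molecules from 8.17%–8.41% to 7.08%–8.12%. The part of these shifts in the Angpt2 and Tek results was not tested. Stellate cells and fibroblasts, Kupffer cells and T, NK and ILC1 cells each held a lower Angpt2 CPM than endothelial cells of the same group.

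Within the endothelium, Angpt2 was higher in sinusoidal cells gated as periportal than in those gated as pericentral. Most sinusoidal cells fell in neither gate, out of 2595 and 2254 in sham and 1472, 1666 and 658 in pIVCL. All endothelial cells outside the large-vessel gate held 20.1 and 25.9 CPM in sham and 196, 207 and 243 in pIVCL. Periportal cells held 42.8 and 38.2 CPM in the sham libraries and 222, 217 and 278 in the pIVCL libraries, and pericentral cells 6.75 and 9.98 against 74.8, 46.3 and 54.8. Periportal cells were higher in 5 of 5 libraries, by 2.97-fold to 6.34-fold. Paired within libraries, the log2 difference of pericentral from periportal cells was -2.10 ± 0.14 (adjusted p = 2.77e-12, edgeR quasi-likelihood with Benjamini-Hochberg adjustment), in a comparison where 10.7% of genes passed. Its range over the alternatives that leave out a library was -2.31 to -1.98. Tek (log2 difference 0.14 ± 0.08, adjusted p = 0.382), Tie1 (0.03 ± 0.07, 0.903) and Ptprb (-0.06 ± 0.06, 0.695) did not pass between the zones in the same edgeR fit.

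The Angpt2 difference between the operations was present in both zones. The mean rose 5.90-fold in periportal cells, from 40.5 to 239 CPM, and 7.01-fold in pericentral cells, from 8.37 to 58.6. Each pericentral pIVCL value was above both periportal sham values. Some of the pericentral gate genes, Thbd, Kit, Wnt2 and Ramp3, were lower after pIVCL, and the gate held 676 and 390 cells in the sham libraries against 130, 105 and 67, while the periportal gate held 461 and 473 against 490, 648 and 218. Membership of a zone therefore shifted with the operation. Its part in the zone values was not tested.

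Tek was lower after pIVCL in both zones. Periportal cells held 353 and 339 CPM in sham and 269, 213 and 255 in pIVCL, and the fall did not pass in these cells alone (log2 fold change -0.53, adjusted p = 0.08, edgeR). Pericentral cells held 429 and 402 against 278, 235 and 230, and the fall passed there (-0.81, adjusted p = 0.0112, edgeR). Whether the 2 zones differed in this change was not tested.

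Cells of larger vessels, gated on genes such as Vwf, Gja5 and Sox17, held few Angpt2 molecules. There were 1 and 1 in the sham libraries and 8, 0 and 15 in the pIVCL libraries. The levels were 1.46 and 1.66 CPM against 26.8, 0 and 91.9, so that the groups overlapped. In pIVCL 3 the level was above the 54.8 CPM of pericentral cells, and in the other libraries it was below that of pericentral cells. Pooled, the ratio of pIVCL to sham was 23.5 (95% Poisson interval 5.80 to 205), and 11.0 (2.20 to 106.4) without pIVCL 3. Against the other endothelial cells, paired within libraries, their log2 difference in Angpt2 was -2.85 ± 0.45 (adjusted p = 0.00304, edgeR quasi-likelihood), lower in 5 of 5 libraries, where 18.4% of genes passed.

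Neither receptor passed between large-vessel and other endothelial cells. Tek stood at 447 and 478 CPM in sham and 284, 286 and 202 in pIVCL, below sham in each pIVCL library. Its difference from other endothelial cells was 0.13 ± 0.12 (adjusted p = 0.523, edgeR). Tie1 was higher in large-vessel cells in 5 of 5 libraries, by 0.26 ± 0.10, without passing (adjusted p = 0.0733, edgeR), and Ptprb differed by -0.19 ± 0.10 (0.225).

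Cycling endothelial cells, 12 to 26 per library, held 6 Angpt2 molecules in sham and 51 in pIVCL. Their mean level was 16.0 and 129 ± 51.7 CPM, 8.05-fold apart. Tek in these cells was 208 ± 22.4 and 163 ± 64.3, with overlapping groups.

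**Figure D3:**
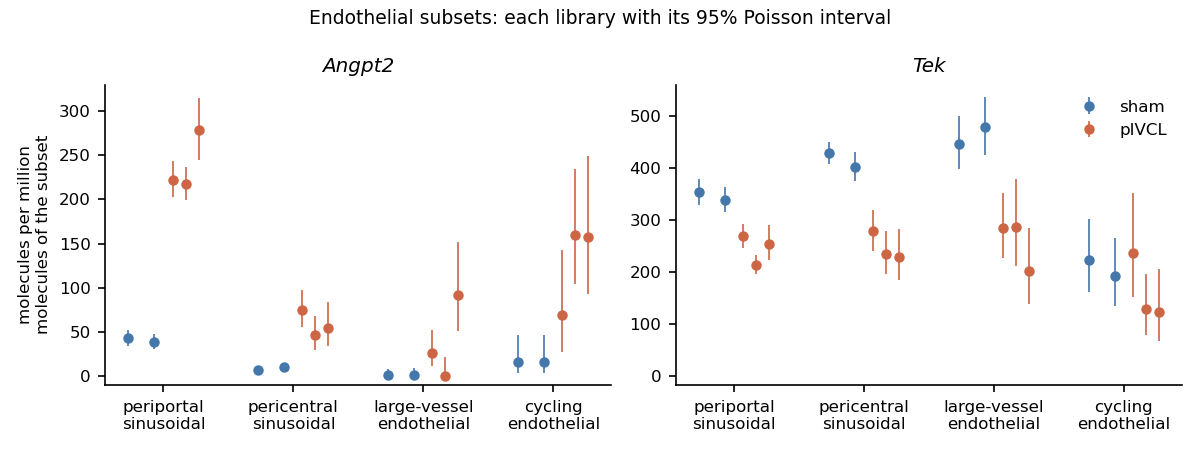
Angpt2 and Tek in periportal, pericentral, large-vessel and cycling endothelial cells, in CPM for each library, with 95% Poisson intervals that cover counting error. Angpt2 is higher in periportal than in pericentral cells of every library, and the large-vessel points of Angpt2 rest on 0 to 15 molecules.

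Angpt1, the activating ligand, was close to absent from endothelial cells, with 3, 3, 2, 4 and 1 molecules in the 5 libraries. Outside the endothelium its main sources were stellate cells and cholangiocytes. Stellate cells, the pericytes of the sinusoid, held 58.0 and 110.7 CPM in sham and 179, 204 and 202 in pIVCL, from 13, 8, 206, 209 and 81 molecules in 57, 18, 246, 240 and 82 cells. Every pIVCL library was above both shams, and the means of 84.4 ± 37.3 (SD, n = 2) and 195 ± 13.8 (SD, n = 3) were 2.32-fold apart. The sham values rest on 21 molecules in 75 cells.

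In stellate cells and fibroblasts together, Angpt1 went from 54.6 and 29.6 CPM to 141, 188 and 127, a 3.61-fold difference of the means. The log2 fold change was 1.93 ± 0.34 with an adjusted p of 0.0704, so that it did not pass edgeR's quasi-likelihood test with Benjamini-Hochberg adjustment, in a comparison where 0.11% of 8158 genes did. It passed under 11 of 17 alternatives, in 1 of which batch 2021.3 gave a single pIVCL library. Another had a block on the replicate number, which the labels do not give as a pairing. In stellate cells alone Angpt1 was at 1.53 (adjusted p = 0.0349, edgeR), a fit in which sham 2 entered with 18 cells, under the minimum of 20. It did not pass with a batch term (1.78, 0.259), and its adjusted p by edgeR was 0.457 without sham 2 and 0.18 without pIVCL 2.

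The makeup of the combined class differed between the groups, and Angpt1 differed between its parts. Fibroblasts, 15 to 35 per library, held 2 to 6 Angpt1 molecules and overlapped between groups, at 48.2 and 8.46 CPM in sham and 14.1, 59.6 and 13.6 in pIVCL. They made up more of the sham class than of the pIVCL class, with 18 of 81 and 35 of 57 cells against 28 of 282, 15 of 258 and 18 of 113. The value in stellate cells alone, given above, leaves the fibroblasts out. A mean of 15.4% of sham and 40.1% of pIVCL cells of the combined class held a molecule, and 8.45% and 13.8% after thinning to 1000 molecules.

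Cholangiocytes, the epithelium of the bile ducts, held Angpt1 in both groups. Their level was 292 and 214 CPM in sham and 243, 215 and 176 in pIVCL, with overlapping groups and means of 253 ± 55.5 (SD, n = 2) and 211 ± 33.8 (SD, n = 3). A molecule was found in 80.6% and 51.9% of sham cells and in 57.9%, 63.6% and 60.0% of pIVCL cells, while Kupffer cells held 2 molecules in sham and 0 in pIVCL. No test was run, because pIVCL 1 and pIVCL 3 had 19 and 15 cholangiocytes. Mitochondrial molecules made up 12.4% to 13% of the class in sham and 9.91% to 11.9% in pIVCL. A stricter cell filter asked for at least 1000 molecules and at most 10% mitochondrial molecules. It left 0 and 3 cholangiocytes in sham and 2, 4 and 8 in pIVCL. Outside pIVCL 3, most of the cells behind the cholangiocyte values were thus removed by that filter. The stellate and fibroblast marker list took 0.00483% to 0.0847% of cholangiocyte molecules against 4.19% to 5.34% in its own class.

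The division of Angpt1 among the captured cells differed accordingly. Cholangiocytes held 56.9% and 40.8% of a sham library's Angpt1 molecules and 8.20%, 11.2% and 11.0% of a pIVCL library's. Stellate cells and fibroblasts held 21.6% and 13.2% against 68.9%, 50.2% and 57.2%. Cells that reached more than 1 class, and were left out, held 16.7% and 27.6% in sham and 15.7%, 27.6% and 26.2% in pIVCL. These shares follow the number of cells captured as well as the level in each, and the stellate and fibroblast class had 81 and 57 cells in sham and 282, 258 and 113 in pIVCL. Small numbers were found in T, NK and ILC1 cells, with 5 molecules in sham and 14 in pIVCL, and in plasmacytoid dendritic cells, with 0 and 7.

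Angpt2 was also found in stellate cells and fibroblasts of pIVCL livers. The class held 3 and 0 molecules in sham and 43, 40 and 14 in pIVCL, that is 7.44 and 0 against 28.9, 35.0 and 21.5 CPM. The groups did not overlap, and the log2 fold change of 2.89 ± 0.73 did not pass (adjusted p = 0.136, edgeR quasi-likelihood). Fibroblasts held 0 and 0 molecules in sham and 24, 4 and 6 in pIVCL, at least 7.69-fold higher against a floor of 3 molecules over the sham group. Without pIVCL 1, which held 24 of the 34 molecules, the bound was 4.86-fold. Stellate cells held 3 and 0 against 17, 36 and 8, a pooled ratio of 2.34 whose interval of 0.76 to 11.7 includes no difference.

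The endothelial marker list was also higher in that class after pIVCL, and its part in the Angpt2 result was not tested. The endothelial list took 0.112% to 0.200% of molecules in sham and 0.284% to 0.382% in pIVCL, against 2.01% to 2.72% in endothelial cells, and in the pIVCL libraries most of it was Ehd3, at 1994 to 3204 CPM. In endothelial cells there were 0.309 Angpt2 molecules per 100 Ptprb molecules in sham and 3.25 in pIVCL, and in Kupffer cells 1.24 and 5.35. In stellate cells and fibroblasts there were 7.89 in sham, from 3 Angpt2 molecules, and 85.8 in pIVCL, and 97.1 in pIVCL fibroblasts.

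The smooth-muscle marker list was higher in this class after pIVCL too, at 0.0341% to 0.0648% of molecules in sham and 0.108% to 0.209% in pIVCL. Smooth-muscle markers did not exclude a cell from the class. Among the pIVCL cells of the class, the 213 with at least 2 smooth-muscle markers held 65 Angpt2 molecules, or 50.7 CPM (39.1 to 64.6). The 277 cells with 1 marker held 26 molecules at 19.5 CPM, and the 163 cells with none held 6 at 8.97 CPM (3.29 to 19.5). This division by markers was chosen after the values were seen.

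**Figure D4:**
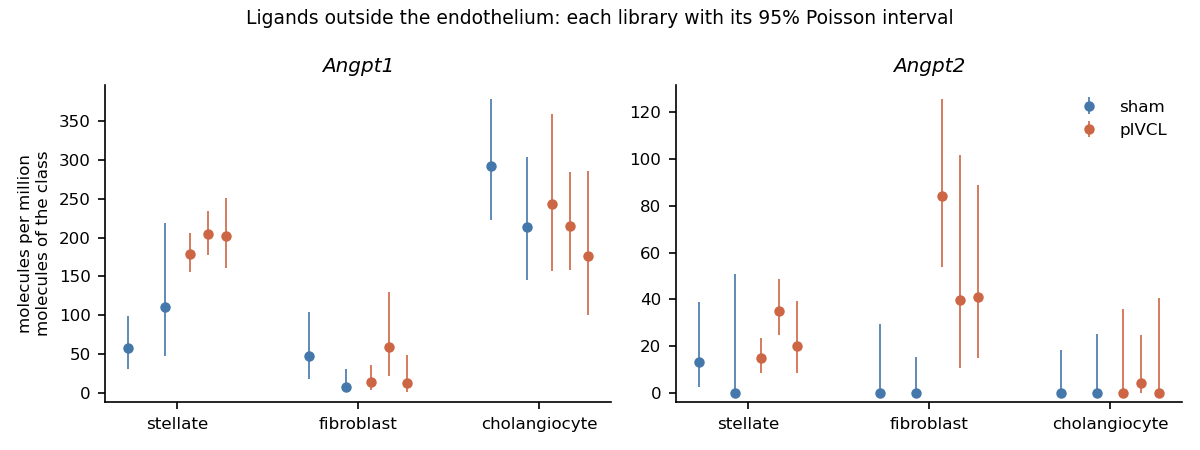
Angpt1 and Angpt2 in stellate cells, fibroblasts and cholangiocytes, in CPM for each library, with 95% Poisson intervals that cover counting error. Angpt1 is above both sham points in each pIVCL library for stellate cells and overlaps for cholangiocytes, and Angpt2 is at 0 in the fibroblasts of both sham libraries.

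The receptors and Ptprb were low outside the endothelium. In stellate cells and fibroblasts Tek gave 8 molecules in sham and 15 in pIVCL, and Tie1 4 and 49. Ptprb gave 38 and 113 molecules there, and its log2 fold change of -0.59 ± 0.42 did not pass (adjusted p = 0.63, edgeR). In Kupffer cells Tek gave 31 molecules in sham and 5 in pIVCL.

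Kupffer Tie1 (log2 fold change 0.46 ± 0.46, adjusted p = 0.677) and Ptprb (-0.21 ± 0.26, 0.743) did not pass either, where 0.838% of genes did, and Ptprb in T, NK and ILC1 cells did not (-0.58 ± 0.35, 0.601), where 0.171% did, all by edgeR. The pIVCL effect was also compared directly between the endothelial and the stellate and fibroblast classes. None of the 5 genes passed that test, where 1.21% of genes did: Tie1 was the nearest, with a difference of -1.37 ± 0.62 and an adjusted p of 0.396 by edgeR. A larger Angpt2 or Tek effect in 1 of the 2 classes was thus not shown, and the standard errors of 0.96 for Angpt2 and 0.72 for Tek leave wide limits.

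Other genes of the pathway were followed in endothelial cells through 6 lists of 63 genes in all, of which 59 had enough molecules to be tested. Of these, 5 rose and 7 fell, 20.3% of those tested beside 5.87% of all genes. Their median log2 fold change was -0.09 beside -0.00 for all genes. The lists were chosen with earlier results of these data known, so that the 2 shares are not an independent comparison. The count rested on single libraries: of the 12 genes, 0 still passed without sham 1, 1 without sham 2, 2 without pIVCL 2, 2 without pIVCL 3 and 12 without pIVCL 1. With a batch term 4 passed, with the looser gate 4 and with the replicate number as a block 2.

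In the list of FOXO factors and their target genes, 3 of 14 tested genes rose and 1 fell, with a median of 0.15. That is 28.6% of the list, beside 5.87% of all tested genes. Depp1, a FOXO target induced by stress and fasting, went from 15.3 and 20.4 CPM to 171, 351 and 440 (log2 fold change 4.06 ± 0.43, adjusted p = 0.00615, edgeR). Cited2, a transcriptional coregulator, went from 13.3 to 25.4 (0.84 ± 0.16, adjusted p = 0.0234, edgeR). Sesn3, a sestrin that restrains mTORC1, went from 8.88 to 16.8 (0.82 ± 0.19, adjusted p = 0.0377, edgeR).

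Insr, the insulin receptor and also a FOXO target, fell over all endothelial cells, from 89.5 to 60.0 (-0.66 ± 0.12, adjusted p = 0.0195, edgeR), although its sign turned in pericentral cells alone (0.76, adjusted p = 0.089, edgeR). Foxo1 itself had 163 and 166 CPM in sham and 220, 241 and 306 in pIVCL, without overlap. Its log2 fold change of 0.54 ± 0.14 did not pass (adjusted p = 0.0589, edgeR). The list thus held genes of both directions.

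Among receptor partners and sheddases, 1 of 9 tested genes rose and 2 fell, with a median of -0.25. The share passing was 33.3%, beside 5.87% of all tested genes. Itgb3, the integrin beta 3 chain, went from 18.2 and 23.6 CPM to 40.6, 53.5 and 52.9 (1.13 ± 0.18, adjusted p = 0.0116, edgeR). Cd9, a tetraspanin, fell from 93.5 to 65.0 (-0.62 ± 0.13, 0.0299), and Adam10, a membrane protease, from 208 to 154 (-0.52 ± 0.11, 0.0308), both by edgeR; Cd9 was at 0.031 in periportal cells alone.

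Of the other ligands, Svep1, an extracellular protein that binds Tie1, rose on few molecules, 6 in sham and 44 in pIVCL (3.48 ± 0.85, adjusted p = 0.0485, edgeR). Without pIVCL 3 it was 2.77 and did not pass (adjusted p = 0.0979, edgeR), nor did it without sham 1, sham 2 or pIVCL 2. Its levels of 0.14 and 0.32 against 1.41, 1.88 and 6.15 CPM were small beside the 219 ± 53.0 in sham and 144 ± 37.8 in pIVCL that fibroblasts held. Whether fibroblast RNA gave part of the endothelial Svep1 was not tested. Angpt4 had 0 endothelial molecules.

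In the signal relay below Tie2 6.67% of tested genes passed, and among the regulators of these genes 16.7%, beside 5.87% of all tested genes. Of 15 tested adaptor and kinase genes none rose and 1 fell, with a median of -0.11: Pik3r1, the regulatory subunit of PI3K, went from 129 to 95.5 (-0.52 ± 0.12, adjusted p = 0.0372, edgeR). Of 12 transcription factors that act on these genes none rose and 2 fell, with a median of -0.13. Ets1 went from 1009.7 to 682 (-0.65 ± 0.14, 0.0284) and Elk3 from 723 to 535 (-0.52 ± 0.12, 0.0417), by edgeR, and Klf2 was at 1137 ± 414 and 1025 ± 348.

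Of 8 VE-PTP substrates and junction partners none rose and 1 fell, with a median of -0.11. The share passing was 12.5%, beside 5.87% of all tested genes. Flt1, the decoy receptor VEGFR1, went from 1177 to 845 (-0.57 ± 0.13, adjusted p = 0.0421, edgeR). Cdh5, which encodes VE-cadherin, was at 628 and 627, and Kdr (VEGFR2) at 4781 and 4003, neither of which passed. Depp1 and Itgb3 each lost their call under 2 alternatives, and the other 10 genes under 6 to 9 each.

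Genes whose levels followed each member most closely were ranked over 25 points, 5 cell classes in 5 libraries, by Pearson's r of log2(CPM + 1) among 10981 genes. The points share libraries and depth, the differences between classes dominate them, and the values are descriptive. Tek was nearest to Slc35g2 (0.950), Cadps2 (0.948) and Plxnd1 (0.942). Flt4 (0.967) and Ptprb (0.962) were among the genes nearest to Tie1, and Ptprb was nearest to Kdr (0.982), Upp1 (0.978) and F8 (0.976). The ligands had other neighbours: Angpt2 had Cdh4 (0.921), Hoxb5 (0.893) and Ica1 (0.886), and Angpt1 had Fhl2 (0.961), Clip4 (0.951) and Nt5e (0.934). Between members, r was 0.917 for Tek and Ptprb, 0.881 for Tek and Tie1, 0.771 for Angpt2 and Tek and -0.337 for Angpt1 and Ptprb.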

How the data were processed

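Molecule counts per cell and gene, corrected by the BD WTA Rhapsody Analysis Pipeline 1.9.1 per the file headers, were used as deposited by the authors; the genome was GRCm39 per the submitters' processing notes, and for the aligner and annotation the headers and labels used here name nothing. Cells with at least 500 molecules, at least 200 genes and at most 25% mitochondrial molecules were kept. A cell joined a class when it held at least a share of 0.5 of that class's markers, or 4 for T, NK and ILC1 cells. No other class could reach its threshold, except that smooth muscle markers did not exclude a cell from the stellate and fibroblast class. Large-vessel and cycling cells needed 4 markers, pericentral cells at least 3 pericentral and at most 4 periportal markers, periportal cells 0 and at least 5, and stellate cells and fibroblasts 4 each. Other cells that reached more than 1 class were left out. No doublet caller and no correction for free RNA were applied. Counts were summed per library and class, with at least 20 cells per library (18 stellate cells in sham 2, in the fit of stellate cells alone, are the exception), and tested with edgeR 4.0.16 (quasi-likelihood, TMM scaling; limma 3.58.1, R 4.3.3) over all genes passing the expression filter, with Benjamini-Hochberg adjustment and a threshold of 0.05; class comparisons had the library as a block. Standard errors were taken from the fold change and its F statistic. Shares of cells were computed after thinning to 1000 molecules (seed 7) and compared by exact permutation. Alternatives were DESeq2 1.42.0, other scaling, filters, gates, cell subsets, a batch term, batch 2021.3 alone, a replicate block and each library left out; the subsets, the batch alone for shares of cells and a gate with a stricter bar on markers of a second class were chosen after seeing the data. The pipeline was tested on simulated data. Python 3.11.15, numpy 2.4.6, scipy 1.17.1, pandas 2.3.3 and matplotlib 3.10.9 were used. By rule, the text names the 5 members, at most 4 pathway genes a list that passed in endothelial cells, by lowest p, and the 3 genes with the highest correlation to each member, of which 1 is not reported here; Foxo1, Klf2, Cdh5, Kdr, Angpt4, Ehd3 and the gate genes Thbd, Kit, Wnt2 and Ramp3 were added after their values were seen. The members and lists were chosen with earlier results of these data known.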

Additional observations from a re-analysis of the deposited data

How the results depend on the processing

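Every alternative run with more than 1 library in each group kept the direction and the call of the endothelial rise of Angpt2. The same held for the Angpt2 differences between zones and between large-vessel and other endothelial cells, and for the 9 class differences of the members. Of 11386 genes tested in endothelial cells, the number passing was 668, and it was 412 with a batch term, 1109 with DESeq2's Wald test, 318 with the looser gate, 1859 with no expression filter and 243 in periportal cells alone. It was 66 without sham 1, 91 without sham 2, 2648 without pIVCL 1, 240 without pIVCL 2 and 255 without pIVCL 3. The fall of Tek did not pass with the looser gate (log2 fold change -0.83), a batch term (-0.54) or periportal cells alone (-0.53), and was -0.98 to -0.72 with a library left out. The cause was not tested. Batch 2021.3 alone, below, has a single pIVCL library.

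In stellate cells and fibroblasts the number of genes passing was 9, and 224 in batch 2021.3 alone, 5 with a batch term, 99 with DESeq2, 20 with the looser gate, 427 with no filter, 36 with the stricter bar on a second class, 119 with the replicate block, 44 in stellate cells alone, 37 with the stricter gate and 0 to 134 with a library left out. Angpt1 passed with no filter (1.98), stricter cell filters (2.24), the stricter gate (2.07), the looser gate (1.81), the stricter bar on a second class (1.95), DESeq2 (1.94), batch 2021.3 alone (1.79), the replicate block (2.06) and stellate cells alone (1.53), and was 1.61 to 2.45 with a library left out. Angpt2 there passed with no filter (2.94) and was 2.06 to 7.73 with a library left out; fitted values with a group at 0 depend on the prior count and are no bound. Ptprb there reversed with the looser gate (0.71) and was -1.01 to -0.07 with a library left out.

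Kupffer cells gave 82 genes, and 46 in batch 2021.3 alone, 20 with a batch term, 141 with DESeq2, 0 with the looser gate, 487 with no filter, 42 with the replicate block and 14 to 955 with a library left out. Ptprb there reversed with the looser gate (0.26), a batch term (0.12), batch 2021.3 alone (0.12) and the replicate block (0.030), and was -0.51 to 0.14 with a library left out, and Tie1 was -0.019 to 1.02. T, NK and ILC1 cells gave 12, and 32 in batch 2021.3 alone, 94 with no filter, 6 with the replicate block and 3 to 127 with a library left out.

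The difference of the pIVCL effect between classes gave 142 genes, and 81 with the looser gate, 470 with no filter, 215 with the stricter bar on a second class, 75 with stricter cell filters and 19 to 220 with a library left out. Its sign turned for Angpt2 with stricter cell filters (-6.80), the looser gate (-0.99) and the stricter bar on a second class (-0.068), for Ptprb with stricter cell filters (-0.20) and the looser gate (-0.93), and for Tek with the looser gate (-0.78). With a library left out it was -7.04 to 1.20 for Angpt2, -0.18 to 0.75 for Ptprb and -0.26 to 0.88 for Tek. Large-vessel cells gave 1290 to 1944 genes with a library left out. Ptprb passed there with no filter (-0.27), with a range of -0.28 to -0.14, and Tie1 with DESeq2 size factors (0.29). Among pathway genes, Cd9 turned in periportal cells alone (0.031) and Insr in pericentral cells alone (0.76).

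For shares of cells, no thinning gave differences of 31.6 points for Angpt2, -23.3 for Tek, -0.267 for Ptprb, -1.80 for Tie1 and 0.0717 for Angpt1, and 500 molecules gave 8.21, -7.49, -3.27 and 5.97 for Angpt2, Tek, Ptprb and Tie1. Batch 2021.3 alone gave -0.532 for Ptprb and -0.983 for Tie1. With a library left out the difference was 13.7 to 15.4 for Angpt2, -12.8 to -9.76 for Tek, -1.48 to -0.995 for Ptprb, 1.88 to 5.68 for Tie1 and -0.0365 to 0 for Angpt1.

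Same-numbered libraries share only a number: over 11386 genes their deviations from the group means correlated at -0.011 and -0.029, and with the replicate number as a block (replicate block) 537 endothelial genes passed, 421 of them among the 668. Depth limits the classes outside the endothelium, where sham stellate cells numbered 57 and 18.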
